A study of Mus musculus with 6 samples.

Results

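Cyclins, the cyclin-dependent kinases (CDKs) that they switch on and the inhibitors that hold these kinases back were examined in tip and stalk cells of the ureteric epithelium. This epithelium branches through the fetal kidney and later forms the collecting duct system. The genes were taken by symbol: those that begin with Ccn followed by a letter from a to l and a digit, those that are Cdk followed by digits only, and those that begin with Cdkn, without Cdkn1c. Of 44 such symbols, 43 had values, among 21456 symbols with values in all, and Cdk15 had none. Tip cells (3 libraries) were positive for a Wnt11 RFP and a Hoxb7 GFP reporter, and stalk cells (3 libraries) were positive for the Hoxb7 GFP reporter and negative for the Wnt11 RFP reporter. All came from developing kidneys of CFW mice at stage E16.5 of gestation, and all carried the Hoxb7 reporter, which marks the ureteric epithelium. The Wnt11 reporter marks the growing tips, so the sort parted the groups by the signal of 1 reporter. Pooling of animals was not given in the sources used here, and the p-values measure only the spread between these libraries, which may be technical.

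A cell enters division when D cyclins bind CDK4 or CDK6 and begin to inactivate the retinoblastoma proteins, which frees E2F factors. Cyclins E and A then drive DNA replication with CDK2, and cyclins A and B drive mitosis with CDK1. The INK4 inhibitors (Cdkn2a to Cdkn2d) block CDK4 and CDK6, and the CIP/KIP inhibitors (Cdkn1a to Cdkn1c) bind whole cyclin-CDK complexes. In the developing kidney, division is most frequent at the ureteric tips, and Ccnd1 is a known tip gene. Other cyclins and CDKs act in transcription and RNA processing and do not follow the division cycle.

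Levels are RPKM (read counts divided by transcript length and library size) as the authors deposited them, summed over the rows of a symbol. Differences are log2(RPKM + 1) of tip minus stalk, with the standard error (SE) from limma and p-values adjusted by the Benjamini-Hochberg method over the 12532 genes whose mean level reached 1 RPKM. A gene is called at an adjusted p under 0.05. In such bulk samples, fewer cells of a type and less RNA per cell cannot be told apart. The sum of RPKM was 345123 to 366035 per library, and the depth behind it is unknown. Wnt11 stood at 929.5, 423.1 and 725.9 RPKM in the tip libraries, against 1.92, 8.67 and 24.5 RPKM in the stalk libraries, in the direction of the sort labels. Principal component 1, with 82.9% of the variance, split tip from stalk. On component 2, with 9.21%, tip replicate 2 and stalk replicate 1 lay at -20.5 and -25, and the rest lay at 7.72 to 18.5.

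Most cyclins and kinases of the division cycle were higher in tip, while Ccnd3, its pseudogene Ccnd3-ps, Ccng1, Cdkn1a and Cdk10 were higher in stalk. Of the 43 genes, 39 passed the filter on low values and were tested. Of these, 16 (41.0%) were called higher in tip, where 26.1% of all tested genes were. Only 5 (12.8%) were called higher in stalk, where 22.5% of all tested genes were. That count was 2 without tip replicate 1 or tip replicate 3 and 3 without stalk replicate 2 or stalk replicate 3. It includes Ccnd3-ps, which passed the filter through its stalk level. In both directions together the calls came to 21 of 39 (53.8%), close to the 48.6% of all genes. The median difference over the 39 tested genes was 0.24, and that over all tested genes was 0.05. In 18 genes every tip library lay above every stalk library (31.3% of all tested genes did so), and in 5 every stalk library lay above every tip library (26.5% of all tested genes). Groups without overlap in either direction thus numbered 23 here, and made up 57.8% of all tested genes.

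**Figure D1:**
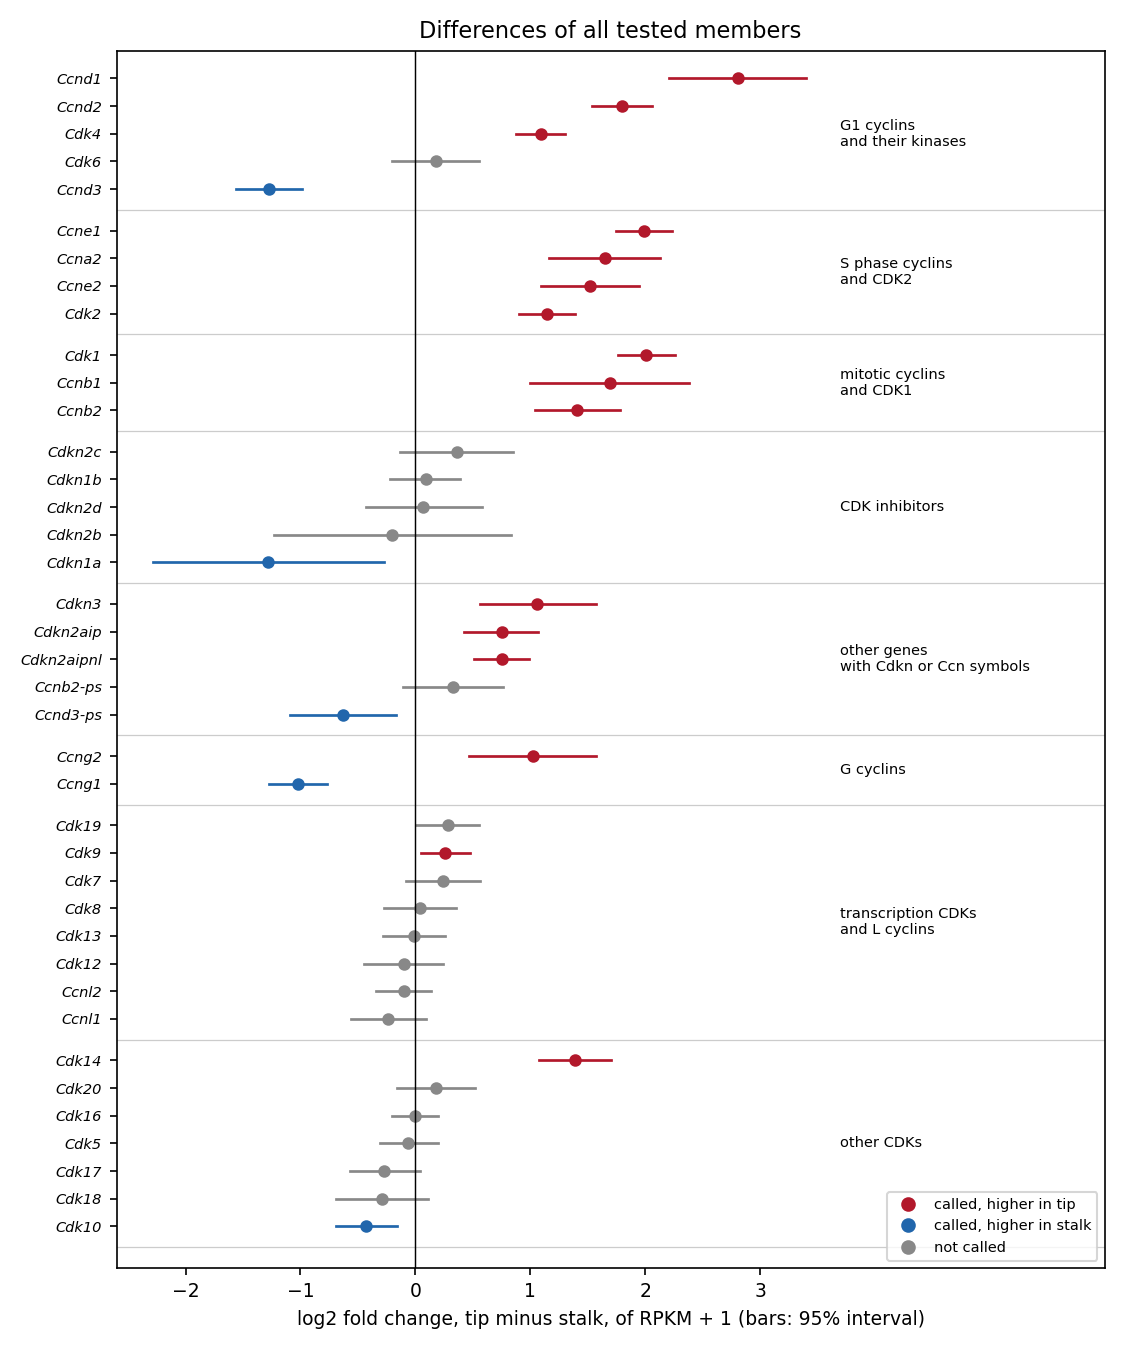
Difference of each of the 39 tested genes between tip and stalk (points, log2 fold change of RPKM + 1) with its 95% interval from limma (bars), grouped by role. The genes of S phase and mitosis all lie to the right of 0, from 1.15 for Cdk2 to 2.01 for Cdk1. The transcription CDKs and L cyclins lie between -0.24 and 0.28.

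Promoter sequences are shown for 5 genes that were called higher in tip, Ccnb1, Ccnb2, Cdk1, Cdkn3 and Cdk2, because their upstream bases carry the motifs known from genes of the division cycle. Each run is the 250 bases before the start that RefSeq annotates (GRCm38.p6), 5′ to 3′ on the gene's own strand. Capitals mark matches, on either strand, to CCAAT (the NF-Y box), to TTTGAA or TTCGAA (cell cycle homology region, CHR, bound by the DREAM and MMB complexes) and to the E2F motifs TTTGGCGC, TTTCCCGC, TTTCGCGC and TTTGCCGC.

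Ccnb1 (chr13:100786487-100786736, minus strand): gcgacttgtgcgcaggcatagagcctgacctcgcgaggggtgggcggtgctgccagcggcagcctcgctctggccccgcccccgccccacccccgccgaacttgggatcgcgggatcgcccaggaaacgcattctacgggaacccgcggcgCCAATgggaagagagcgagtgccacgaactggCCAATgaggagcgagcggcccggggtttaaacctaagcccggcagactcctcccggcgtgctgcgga
Ccnb2 (chr9:70421555-70421804, minus strand): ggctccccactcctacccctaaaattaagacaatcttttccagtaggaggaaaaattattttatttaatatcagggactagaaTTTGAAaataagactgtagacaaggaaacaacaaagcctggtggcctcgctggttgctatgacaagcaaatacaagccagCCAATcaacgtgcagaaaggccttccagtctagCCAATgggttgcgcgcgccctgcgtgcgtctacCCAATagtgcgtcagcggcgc
Cdk1 (chr10:69352913-69353162, minus strand): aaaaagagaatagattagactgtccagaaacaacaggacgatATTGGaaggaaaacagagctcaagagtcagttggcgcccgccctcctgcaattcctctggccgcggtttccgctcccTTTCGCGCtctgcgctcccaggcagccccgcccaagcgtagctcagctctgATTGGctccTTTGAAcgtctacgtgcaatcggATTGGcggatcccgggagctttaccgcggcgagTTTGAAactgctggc
Cdkn3 (chr14:46760291-46760540, plus strand): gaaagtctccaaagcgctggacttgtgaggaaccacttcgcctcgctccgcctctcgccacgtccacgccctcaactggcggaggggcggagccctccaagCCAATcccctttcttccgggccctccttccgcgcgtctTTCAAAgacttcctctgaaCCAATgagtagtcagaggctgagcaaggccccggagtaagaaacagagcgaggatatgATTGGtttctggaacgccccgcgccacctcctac
Cdk2 (chr10:128705052-128705301, minus strand): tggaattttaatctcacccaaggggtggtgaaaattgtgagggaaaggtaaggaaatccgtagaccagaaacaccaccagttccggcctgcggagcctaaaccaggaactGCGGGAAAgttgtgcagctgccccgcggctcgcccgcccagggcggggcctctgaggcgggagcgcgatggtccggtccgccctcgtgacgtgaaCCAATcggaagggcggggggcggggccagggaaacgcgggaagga

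Upstream of Ccnb1 there were 2 CCAAT matches, 32 bases apart, and upstream of Ccnb2 there were 3, each 33 bases from the next. Cdk1 held 3 CCAAT matches, of which the 2 nearest the start were 32 bases apart, 2 CHR matches at 71 and 15 bases before the start, and 1 E2F match at 131 bases. Cdkn3 held 3 CCAAT matches, 57 and 58 bases apart, and 1 CHR match. Cdk2 held 1 CCAAT match 45 bases before the start and 1 E2F match. These genes were picked for their matches. Among other genes called higher in tip, Ccne1, Cdk4, Cdk14, Ccng2 and Cdkn2aip held no match, and Cdk9 and Cdkn2aipnl held CCAAT only.

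The promoter table held 34 of the 43 genes, with 39 promoters. It held none for Ccna2, Ccnd1, Ccnd2, Ccne2, Cdk5, Cdk17, Cdk19 and the pseudogenes Ccnb2-ps and Ccnd3-ps. Of the 12 promoters of genes called higher in tip, 7 (58.3%) held CCAAT, 3 (25.0%) held CHR and 2 (16.7%) held an E2F match. The 6 promoters of genes called higher in stalk came from 4 genes, as Ccnd3 and Cdkn1a had more than 1 each. Of these 6, 3 held CCAAT (Ccnd3, Ccng1 and Cdk10) and 0 held CHR or E2F matches. Of the 16 promoters of genes not called, from 14 genes, 5 (31.2%) held CCAAT, 2 (12.5%) held CHR and 0 held an E2F match. The rest of the 39 belong to untested genes, with a CCAAT match for Ccna1 and an E2F match for Cdkn2a. Among all 32851 promoters of the table, 33.8% held CCAAT, 17.1% CHR and 1.86% an E2F match. At least 2 CCAAT matches were as frequent among promoters of genes called higher in tip (4 of 12, 33.3%) as among those of genes called higher in stalk (2 of 6, 33.3%, Ccng1 and Cdk10). They stood in 2 of 16 promoters of genes not called (Cdk16 and Cdkn1b) and in 10.1% of all promoters. They came with a CHR match in 3 of the 12 promoters of genes higher in tip, in 0 of the 6 of genes higher in stalk, in 1 of the 16 of genes not called (Cdk16) and in 1.71% of all promoters. The spacing and the count of CCAAT matches were looked at after the hits were seen, and a match describes letters, not a bound site.

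**Figure D2:**
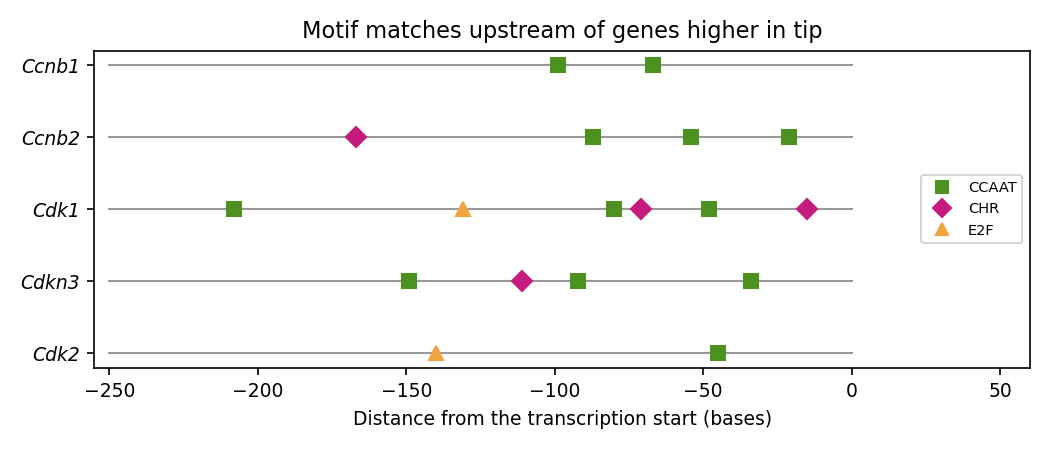
Matches to the CCAAT, CHR and E2F motifs (symbols) by their distance in bases from the annotated start, in the 250 bases upstream of 5 genes called higher in tip. Ccnb2 and Cdkn3 each carry 3 CCAAT matches and 1 CHR match, and Cdk1 carries 3 CCAAT matches, 2 CHR matches and 1 E2F match.

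The D cyclins, which link growth signals to entry into the cycle, moved in opposite directions. Ccnd1, encoding cyclin D1 (chromosome 7, 144929931 to 144939925, minus strand, mm10), stood at 79.9, 66.3 and 91.6 RPKM in the tip libraries, against 6.53, 11.0 and 15.4 RPKM in the stalk libraries. The lowest tip library was more than 4 times the highest stalk library, and the ratio of the means was 7.24. With a difference of 2.81 (SE 0.26, limma adjusted p = 6.88e-05), Ccnd1 ranked 43 of 12532 genes toward tip. Ccnd2, encoding cyclin D2 (chromosome 6, 127125162 to 127152193, minus strand), stood at 33.4, 38.3 and 31.5 RPKM in the tip libraries, against 9.82, 8.60 and 9.04 RPKM in the stalk libraries. It too was higher in every tip library, by 1.80 (SE 0.11, limma adjusted p = 1.27e-05).

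Ccnd3, encoding cyclin D3 (chromosome 17, 47505051 to 47599691, plus strand), went the other way. It stood at 39.4, 54.0 and 45.3 RPKM in the tip libraries, against 119.7, 108.5 and 109.3 RPKM in the stalk libraries. The groups did not overlap, and the difference was -1.27 (SE 0.12, limma adjusted p = 8.54e-05), with a stalk mean 2.43 times the tip mean. The table gives 21 rows for Ccnd3, and 1 of them held 90.7% of its level, so the gene's total follows that row. Reads may also be split with the processed pseudogene Ccnd3-ps on chromosome 4, which stood at 0.596, 1.06 and 0.359 RPKM in the tip libraries, against 1.40, 1.47 and 1.80 RPKM in the stalk libraries. The pseudogene was called in the same direction as Ccnd3 (-0.63, limma adjusted p = 0.0305), a call lost under 4 of 12 alternative settings. With a tip mean of 0.673 RPKM and a stalk mean of 1.56 RPKM, it passed the filter on low values through its stalk level.

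Summed over the D cyclins, the level was 152.7 to 168.4 RPKM across tip, against 128.1 to 136.0 RPKM across stalk libraries. The make-up of this sum differed far more than its size. Ccnd1 held 52.3%, 41.8% and 54.4% of it in the tip libraries and 4.80%, 8.56% and 11.5% in the stalk libraries. Ccnd2 held 18.7% to 24.2% in tip and 6.71% to 7.22% in stalk. Ccnd3 held 25.8%, 34.0% and 26.9% in tip and 88.0%, 84.7% and 81.7% in stalk. RPKM is scaled to transcript length, so these levels can be set side by side, and no p is given because the sum runs over chosen genes. Within tip, replicate 2 had the lowest share of Ccnd1 and the highest of Ccnd3, and within stalk, replicate 1 did.

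**Figure D3:**
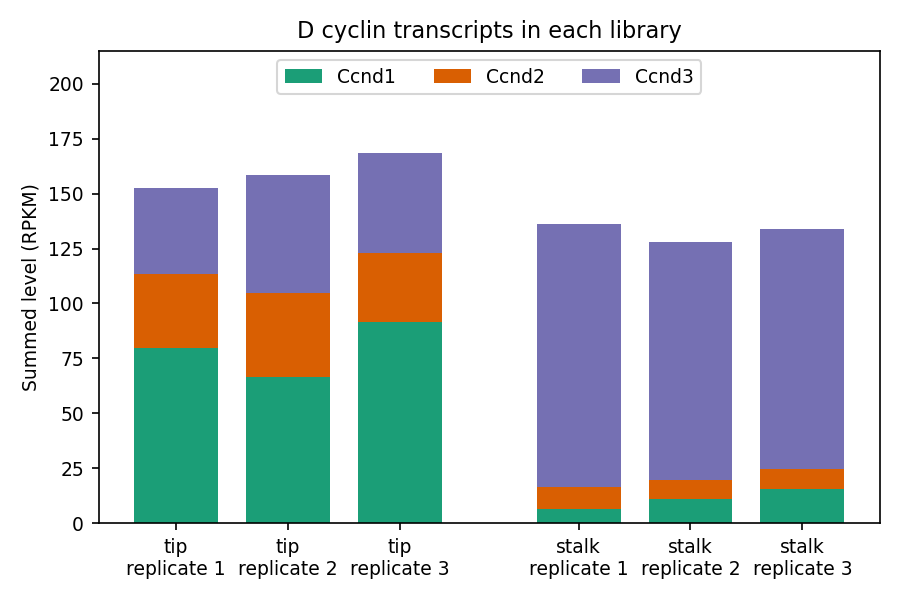
Level of Ccnd1, Ccnd2 and Ccnd3 stacked for each library (RPKM). The tip bars reach 152.7 to 168.4 RPKM, and the stalk bars 128.1 to 136.0 RPKM, and Ccnd3 fills 81.7% to 88.0% of the stalk bars.

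The partner kinases of the D cyclins were at very different levels. Cdk4 (chromosome 10, 127063534 to 127067920, plus strand) stood at 275.0, 240.5 and 266.4 RPKM in the tip libraries, against 115.8, 122.3 and 126.4 RPKM in the stalk libraries. It had the highest level of the 43 genes in every library but stalk replicate 1, where Ccnd3 was higher. All tip values lay above all stalk values, with a difference of 1.09 (SE 0.09, limma adjusted p = 4.53e-05). Cdk6 stood at only 1.57, 1.60 and 1.98 RPKM in the tip libraries, against 1.44, 1.13 and 1.64 RPKM in the stalk libraries. Its groups overlapped and it was not called (0.18, 95% interval -0.20 to 0.55, limma adjusted p = 0.396). Cdk4 was 134 to 175 times the level of Cdk6 in tip and 77.0 to 108 times in stalk.

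All 4 tested genes of S phase were higher in tip. Ccne1, encoding cyclin E1 (chromosome 7, 38097984 to 38107534, minus strand), stood at 22.3, 20.1 and 21.4 RPKM in the tip libraries, against 4.58, 4.50 and 4.68 RPKM in the stalk libraries. Both groups were tight, and the difference was 1.99 (SE 0.10, limma adjusted p = 7.87e-06). Ccne2, encoding cyclin E2, stood at 5.74, 5.67 and 6.35 RPKM in the tip libraries, against 1.93, 0.867 and 1.57 RPKM in the stalk libraries, a difference of 1.52 (SE 0.19, limma adjusted p = 0.00031). The gene of their kinase, Cdk2, stood at 45.9, 39.6 and 42.9 RPKM in the tip libraries, against 17.5, 18.0 and 20.9 RPKM in the stalk libraries. The difference of 1.15 (SE 0.11, limma adjusted p = 7.51e-05) was smaller than that of either E cyclin, as a ratio of means of 2.28 for Cdk2 stood beside 4.63 for Ccne1 and 4.06 for Ccne2.

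Ccna2, encoding cyclin A2, which acts in S phase and at the entry to mitosis, stood at 39.5, 25.5 and 32.9 RPKM in the tip libraries, against 7.53, 8.94 and 13.0 RPKM in the stalk libraries. It was higher in each tip library, by 1.65 (SE 0.21, limma adjusted p = 0.000388). Ccna1, whose cyclin is best known from male meiosis, stood at 1.15, 1.03 and 1.78 RPKM in the tip libraries, against 0.0891, 0 and 0.442 RPKM in the stalk libraries. Its mean over the 6 libraries was under 1 RPKM, so it was not tested.

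The mitotic genes were higher in tip as well. Cdk1 (chromosome 10, 69335146 to 69352938, minus strand), the kinase gene of mitosis, stood at 109.5, 94.3 and 107.5 RPKM in the tip libraries, against 23.6, 23.6 and 27.9 RPKM in the stalk libraries. The lowest tip library was more than 3 times the highest stalk library, and the difference was 2.01 (SE 0.11, limma adjusted p = 8.27e-06). Ccnb2, encoding cyclin B2, averaged 56.5 ± 8.10 RPKM in tip, against 20.8 ± 3.99 RPKM in stalk, with SD over n = 3 each (difference 1.41, SE 0.16, limma adjusted p = 0.00021). Its lowest tip library, at 47.4 RPKM, lay above its highest stalk library, at 24.5 RPKM.

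Ccnb1, encoding cyclin B1, stood at 18.4, 9.43 and 19.0 RPKM in the tip libraries, against 2.46, 5.33 and 4.52 RPKM in the stalk libraries. Tip replicate 2 was the low tip library, and the difference was 1.69 (SE 0.30, limma adjusted p = 0.00211). Its level was divided over 6 rows, of which the leading one held 46.7%. With that row alone the difference was 1.25 and the call was lost (limma adjusted p = 0.0993). Ccnb2 was 3.12 to 5.03 times the level of Ccnb1 in tip and 4.59 to 6.74 times in stalk. Ccnb3, whose cyclin acts in meiosis, was listed at 0 in 5 libraries and at 0.00851 RPKM in tip replicate 2.

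**Figure D4:**
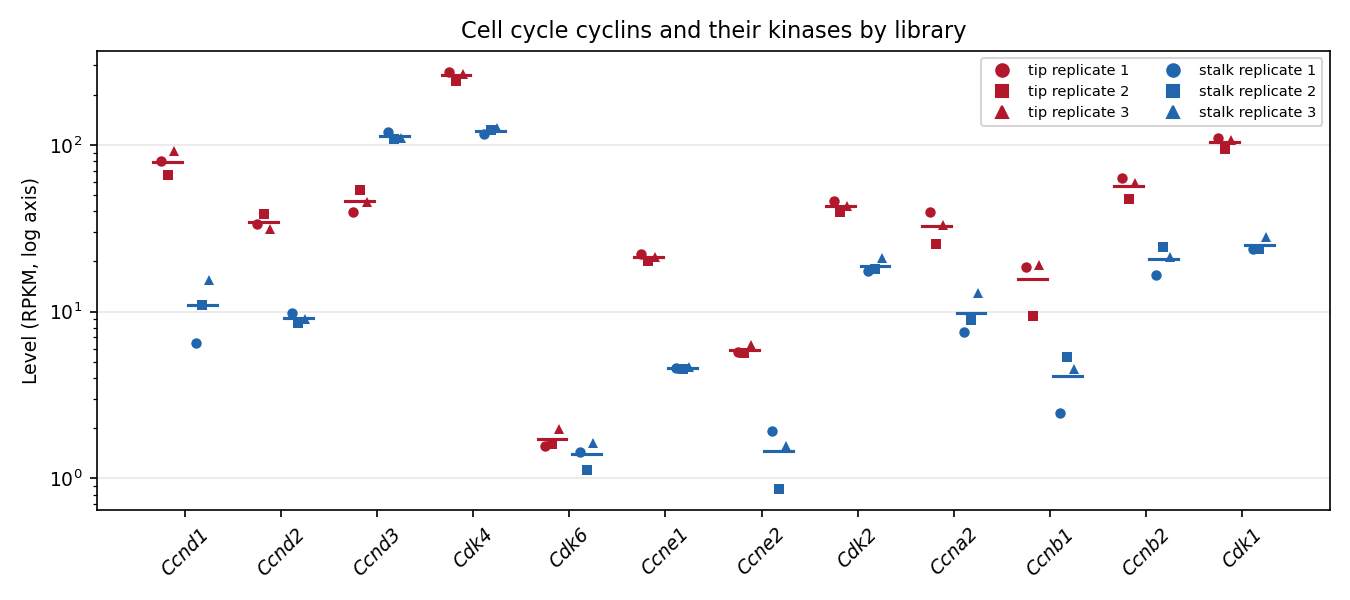
Level of the cyclins and kinases of the division cycle in each library (RPKM, log axis), with tip in red, stalk in blue, a marker shape for each replicate number and a line at the group mean. Ccnd3 is the gene with stalk above tip (tip mean 46.3 RPKM, stalk mean 112.5 RPKM), and Cdk6 the one whose groups overlap.

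Among the inhibitors of the set, which leaves out Cdkn1c, no tested gene was called higher in tip. In stalk, 1 of 5 (20.0%) was called higher, near the 22.5% of all tested genes. Cdkn1a, encoding p21, a CIP/KIP inhibitor that p53 induces (chromosome 17, 29090976 to 29100727, plus strand), stood at 6.46, 24.8 and 11.4 RPKM in the tip libraries, against 49.0, 28.5 and 22.1 RPKM in the stalk libraries. The groups overlapped, since tip replicate 2 was above stalk replicate 3. The difference was -1.28 (SE 0.44, limma adjusted p = 0.0404). The call was lost under 7 of 14 alternative settings, among them without tip replicate 1 (-0.86, adjusted p = 0.121), without tip replicate 3 (-1.22, adjusted p = 0.101), without stalk replicate 1 (-0.97, adjusted p = 0.106) and without stalk replicate 2 (-1.35, adjusted p = 0.072). It was also lost with no filter on low values (adjusted p = 0.136) and without the variance trend (adjusted p = 0.052). Without both tip replicate 2 and stalk replicate 1 the difference was -1.44 (adjusted p = 0.00271).

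Cdkn1b, encoding p27, the other CIP/KIP inhibitor taken here, stood at 20.9, 23.2 and 21.8 RPKM in the tip libraries, against 17.1, 24.1 and 21.1 RPKM in the stalk libraries. The groups overlapped and the difference was 0.09 (95% interval -0.22 to 0.39, limma adjusted p = 0.611). Cdkn1c, the member of the same family that the choice of genes leaves out, averaged 32.4 ± 4.65 RPKM in tip, against 14.5 ± 1.41 RPKM in stalk (SD, n = 3 each). Unlike Cdkn1a and Cdkn1b, it was called higher in tip (1.1, SE 0.13, limma adjusted p = 0.000231).

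None of the INK4 genes was called by limma, and 0 of the 3 tested had an unadjusted p under 0.05. Cdkn2b, encoding p15, stood at 0.827, 4.71 and 2.15 RPKM in the tip libraries, against 5.34, 1.73 and 1.90 RPKM in the stalk libraries, so that 1 library of each group stood well above its others. Its difference was -0.20 with a wide 95% interval, -1.23 to 0.83. Cdkn2c, encoding p18, stood at 1.73, 1.16 and 2.38 RPKM in the tip libraries, against 0.942, 1.51 and 0.931 RPKM in the stalk libraries (0.36, 95% interval -0.13 to 0.85). Cdkn2d, encoding the INK4 protein p19, stood at 8.77, 5.80 and 9.82 RPKM in the tip libraries, against 5.58, 8.65 and 8.74 RPKM in the stalk libraries (0.07, 95% interval -0.43 to 0.58). It had the highest level of the INK4 genes in both groups. Cdkn2a, whose symbol covers both p16 and p19ARF, was listed at 0 in 5 libraries and at 0.106 RPKM in tip replicate 2.

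The G cyclins, a pair of atypical cyclins linked to arrest rather than to progress through the cycle, moved in opposite directions. Ccng1, whose gene is a p53 target (chromosome 11, 40748552 to 40755311, minus strand), stood at 6.60, 7.07 and 6.71 RPKM in the tip libraries, against 14.6, 16.0 and 14.0 RPKM in the stalk libraries. Its tip and stalk values did not overlap, with a difference of -1.02 (SE 0.11, limma adjusted p = 0.00014). Ccng2, whose gene is a FOXO target (chromosome 5, 93267257 to 93276231, plus strand), stood at 50.9, 75.3 and 39.1 RPKM in the tip libraries, against 33.0, 22.4 and 22.8 RPKM in the stalk libraries. It was higher in every tip library, by 1.02 (SE 0.24, limma adjusted p = 0.00803). Ccng2 was 5.83 to 10.6 times the level of Ccng1 in tip and 1.40 to 2.26 times in stalk.

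**Figure D5:**
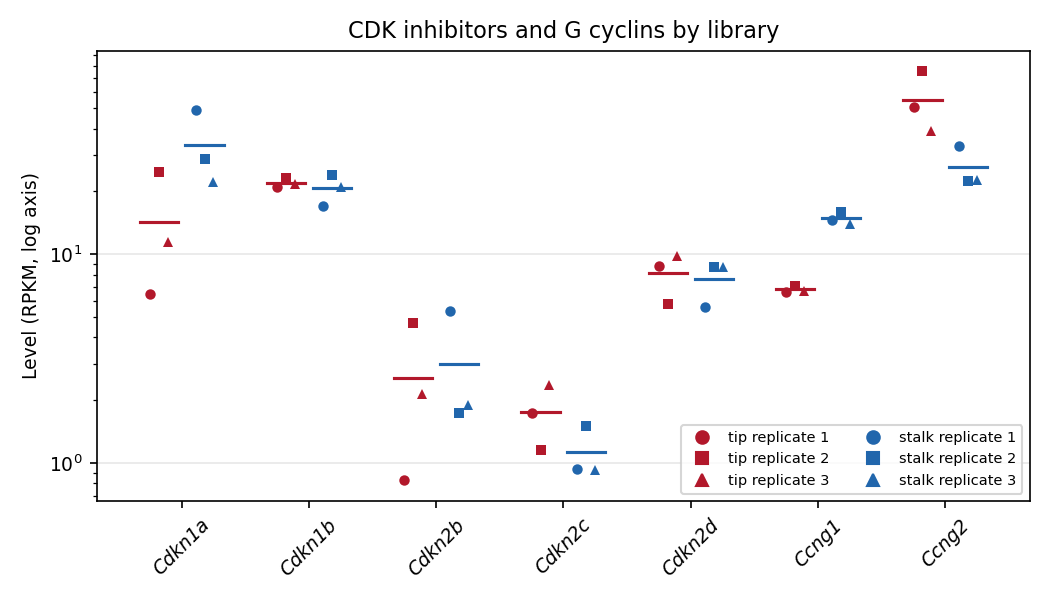
Level of the tested CDK inhibitor genes and the G cyclins in each library (RPKM, log axis), with tip in red, stalk in blue, a marker shape for each replicate number and a line at the group mean. Tip replicate 2 and stalk replicate 1 are the highest libraries of their groups for Cdkn1a, Cdkn2b and Ccng2, and the groups of Ccng1 do not overlap.

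Some symbols of the set name other functions. Cdkn3 encodes a phosphatase that acts on CDKs and stood at 4.78, 4.80 and 5.67 RPKM in the tip libraries, against 2.86, 1.97 and 1.13 RPKM in the stalk libraries. It was higher in all tip libraries (1.06, SE 0.22, limma adjusted p = 0.00438). Cdkn2aip and Cdkn2aipnl, named for their link to the ARF product of Cdkn2a and its paralog, were both called higher in tip by 0.75 (limma adjusted p = 0.00293 and 0.000587). Cdkn2aip averaged 24.6 ± 4.14 RPKM in tip, against 14.1 ± 1.40 RPKM in stalk, and Cdkn2aipnl 30.9 ± 2.0 RPKM in tip, against 18.0 ± 1.53 RPKM in stalk (SD, n = 3 each). Ccnb1ip1, which encodes a ubiquitin ligase of meiosis and not a cyclin, was listed at 0 in 5 libraries. The pseudogene Ccnb2-ps had a mean of 1.33 RPKM for tip, against 0.852 RPKM for stalk and was not called (0.33, limma adjusted p = 0.188), and its reads may be split with Ccnb2.

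The CDKs and cyclins of transcription differed little, and 1 of 8 was called. Cdk9, the kinase of the elongation factor P-TEFb, averaged 34.1 ± 1.13 RPKM in tip, against 28.3 ± 1.93 RPKM in stalk (SD, n = 3 each), a ratio of 1.21. Its call (0.26, SE 0.09, limma adjusted p = 0.0467) was lost under 10 of 14 alternative settings, the leaving out of tip replicate 1, 2 or 3 or stalk replicate 1 or 2 and median ratio scaling among them. Cdk19, a Mediator kinase, missed the threshold although its groups did not overlap (0.28, limma adjusted p = 0.0768). Its paralog Cdk8 had a difference of 0.04, and Cdk7, of the CDK-activating kinase, one of 0.24. Cdk12 and Cdk13, which phosphorylate RNA polymerase II, had differences of -0.10 and -0.01. Ccnl1 and Ccnl2, whose cyclins act in splicing, were among the higher genes of the set, with tip means of 84.9 and 45.6 RPKM, against stalk means of 99.7 and 48.7 RPKM, and had differences of -0.24 and -0.10. Ccnl1 was called higher in stalk without tip replicate 2 (-0.38, limma adjusted p = 0.0363), also when stalk replicate 1 was left out with it (-0.29, adjusted p = 0.0356).

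Of the 7 remaining CDKs, 2 were called. Cdk14, a kinase that phosphorylates the Wnt receptor LRP6 with cyclin Y (chromosome 5, 4803391 to 5420312, minus strand), stood at 14.5, 12.4 and 12.3 RPKM in the tip libraries, against 4.50, 3.71 and 4.96 RPKM in the stalk libraries. Tip was above stalk in every library, with a ratio of means of 2.98 and a difference of 1.39 (SE 0.14, limma adjusted p = 9.19e-05), within the range of the S phase genes. Cdk10 was called higher in stalk (-0.43, SE 0.12, limma adjusted p = 0.0163), at 8.12, 9.01 and 7.43 RPKM for tip, against 11.2, 10.8 and 12.0 RPKM for stalk. That call was lost without tip replicate 1 (adjusted p = 0.0537), without tip replicate 3 (adjusted p = 0.0666) and without stalk replicate 3 (adjusted p = 0.0565). Cdk5, best known from neurons, had a difference of -0.06, Cdk16 of 0.00, Cdk17 of -0.27, Cdk18 of -0.29 and Cdk20 of 0.18, and none was called, although the groups of Cdk17 did not overlap. Cdk16 averaged 43.5 RPKM in both groups, with a 95% interval of the difference of -0.20 to 0.20. Cdk18 was called higher in stalk without stalk replicate 1 (-0.45, adjusted p = 0.0465).

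Genes around the set were counted from lists of general knowledge. Of 14 regulators of CDK activity, 9 (64.3%) were called toward tip and 1 (7.14%) toward stalk, where 26.1% and 22.5% of all tested genes were (median difference 0.37). Skp2, the ubiquitin ligase subunit that marks p27 for destruction, averaged 20.0 ± 2.57 RPKM in tip, against 4.96 ± 1.39 RPKM in stalk (1.84, limma adjusted p = 0.000112). Cdc25c, a phosphatase that activates CDK1, averaged 7.89 ± 1.15 RPKM in tip, against 2.01 ± 0.444 RPKM in stalk (1.56, limma adjusted p = 0.00013). Its relative Cdc25b was the gene called higher in stalk, with 28.3 ± 3.73 RPKM for tip, against 39.0 ± 2.78 RPKM for stalk (-0.46, limma adjusted p = 0.0131).

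Another list held 10 pocket protein and DREAM genes, which carry the signal of the CDKs to transcription. Of these 10, 6 were called toward tip and 0 toward stalk by limma, where 26.1% and 22.5% of all tested genes were. The count toward stalk was 1 without tip replicate 3 or with median ratio scaling. Among the uncalled genes, 1 had an unadjusted p under 0.05. The E2F partner gene Tfdp1 averaged 23.0 ± 2.96 RPKM in tip, against 10.1 ± 1.28 RPKM in stalk (1.12, limma adjusted p = 0.000276). Rbl1, encoding the pocket protein p107, averaged 13.5 ± 1.86 RPKM in tip, against 5.87 ± 0.226 RPKM in stalk (1.07, limma adjusted p = 0.000276). The list had a median of 0.56.

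Of 28 other cyclin and CDK partner genes, 23 were tested, with 7 (30.4%) called toward tip, near the 26.1% of all tested genes, and 2 (8.70%) toward stalk, under the 22.5% of all tested genes (median 0.17). Ccnf, encoding cyclin F, a ubiquitin ligase subunit, averaged 4.89 ± 2.08 RPKM in tip, against 1.67 ± 0.443 RPKM in stalk (1.09, limma adjusted p = 0.0134). Cdk2ap1 averaged 51.9 ± 1.62 RPKM in tip, against 26.5 ± 0.641 RPKM in stalk (0.94, limma adjusted p = 6.25e-05). Cdkl1, encoding a CDK-like kinase of the primary cilium, averaged 3.94 ± 1.23 RPKM in tip, against 34.2 ± 6.06 RPKM in stalk (-2.85, limma adjusted p = 2.58e-05). Ccnt2, encoding a partner of CDK9, was also higher in stalk (-0.39, limma adjusted p = 0.0166). The count toward stalk was 1 without tip replicate 3 and 4 without stalk replicate 1.

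Since Cdkn1a and Ccng1 are p53 targets, 25 further p53 target genes were counted. Of 22 tested, 4 (18.2%) were called toward tip and 5 (22.7%) toward stalk, where 26.1% and 22.5% of all tested genes were, with a median of -0.14. Ddit4l, among those called toward tip, had a stalk mean of 0.495 RPKM and passed the filter through its tip level. Perp, a junction gene, averaged 2.78 ± 0.540 RPKM in tip, against 14.6 ± 3.69 RPKM in stalk (-2.03, limma adjusted p = 7.32e-05), and Pmaip1, a BH3-only apoptosis gene, averaged 14.5 ± 7.07 RPKM in tip, against 46.7 ± 21.0 RPKM in stalk (-1.63, limma adjusted p = 0.00825). The stress cytokine gene Gdf15 averaged 78.0 ± 43.0 RPKM in tip, against 32.6 ± 2.31 RPKM in stalk (1.08, limma adjusted p = 0.035), and the nuclease gene Aen was higher in tip by 0.82 (limma adjusted p = 0.000722). The count toward tip was 2 without tip replicate 1, 2 or 3 or stalk replicate 3, and that toward stalk was 3 without tip replicate 1 or stalk replicate 2 or 3.

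Some markers of other cells and of tissue handling differed between the groups. All 9 ureteric epithelium markers were tested, and 3 were called toward tip (Wnt11, Ret and Epcam) and 4 toward stalk (Cdh1, Gata3, Krt8 and Krt18). Their summed level was 1874.3 to 2069.5 RPKM for tip, against 2269.1 to 2945.3 RPKM for stalk. Of 12 endothelial markers, 11 were tested. Of these, 10 (90.9%) were called higher in stalk and 1, Eng, higher in tip (0.38, limma adjusted p = 0.0486). Pecam1, Cdh5, Emcn, Kdr, Tek, Esam and Tie1 had tip means of 0.184 to 0.857 RPKM, so they passed the filter through their stalk levels. Plvap, Egfl7 and Cldn5, also called higher in stalk, had tip means of 3.23, 18.1 and 1.93 RPKM. Over all tested genes, 22.5% were called higher in stalk and 26.1% higher in tip. Summed endothelial levels were 36.5 to 39.1 RPKM for tip, against 80.4 to 128.1 RPKM for stalk. Of 16 genes of the dissociation response, such as those of heat shock, 10 (62.5%) were called higher in stalk and 0 higher in tip. Their sums were 3369 to 4671 RPKM for tip, against 4961 to 7789 RPKM for stalk. Of 8 nephron progenitor markers, 2 could be tested, Cited1 and Crym, and both were called higher in tip. Their stalk means were 0.804 and 0.512 RPKM, so they passed the filter through their tip levels. Among the untested, Meox1, Eya1, Osr1 and Itga8 had higher means in stalk, and Six2 and Gdnf in tip. The sums over the nephron progenitor markers were 4.77 to 7.10 RPKM for tip, against 2.01 to 3.79 RPKM for stalk. No stromal marker of 3 tested was called by limma, and 0 had an unadjusted p under 0.05. The summed stromal level was 4.80 to 8.67 RPKM for tip, against 5.82 to 9.56 RPKM for stalk. Of 3 tested immune markers, 1 was called toward tip and 1 toward stalk, with sums of 13.0 to 15.7 RPKM for tip, against 12.3 to 19.5 RPKM for stalk. Laptm5, the marker called toward stalk, had a tip mean of 0.101 RPKM and passed the filter through its stalk level. Neither of 2 tested erythroid markers was called, and the sums over the 5 erythroid markers with values ran from 12.7 to 72.8 RPKM over tip and from 9.20 to 84.0 RPKM over stalk libraries. The stromal marker Tbx18 was at 0 in 5 libraries and at 1.1e-13 RPKM, in effect 0, in stalk replicate 2. The part of these cells and of tissue handling in the differences of Ccnd3, Ccng1 and Cdkn1a was not tested.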

How the data were processed

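Messenger RNA was sequenced from 3 tip and 3 stalk libraries. The values are RPKM computed by the authors and deposited in 1 table. Tools listed in the submitters' processing notes are Partek, TopHat2 and bcl2fastq 2.17, with mm10 as build. Strand use, gene annotation and counting options are not given in the sources used here. Of 93615 rows, 24545 held question marks in every column and were left out, and the others were summed per symbol. Rows carry no transcript identifier.

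The comparison used log2(RPKM + 1) and two-sided tests from limma 3.58.1 (R 4.3.3), fitted with a variance trend and no block. The script was tested on simulated data before use. A mean level of 1 RPKM or more was required. Protein sequences were not analysed here. Coordinates are from GENCODE M21, of the same build, and promoters from RefSeq. The genes and lists were chosen with earlier results of these data known. All genes taken by symbol are named. From each list around them, up to 2 called genes with the largest difference in each direction are named. Alternatives changed the pseudocount, the filter, the scaling, the summing of rows, the variance model, the block and the libraries.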

Additional observations from a re-analysis of the deposited data

How the results depend on the processing

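Of the 21 called genes of the set, 16 kept call and direction in every one of the 14 alternative settings in which they were tested, and none reversed. Ccnb1, Cdkn1a, Ccnd3-ps, Cdk9 and Cdk10 lost the call at least once. With all 6 libraries, 16 were called toward tip and 5 toward stalk. The count higher in tip was 14 to 17 over the alternatives. With 1 library left out, the count higher in stalk ranged from 2 to 6. Without tip replicate 1 or tip replicate 3 it was 2, without stalk replicate 2 or 3 it was 3, and the cause was not tested beyond there being fewer libraries. With no filter on low values Ccna1 was also called higher in tip (0.98, adjusted p = 0.0139).

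Deviations of same-numbered tip and stalk libraries from their group means correlated at -0.303, -0.335 and 0.0933. For differently numbered libraries the correlations ran from -0.436 to 0.559. With 3 libraries per group, such correlations cannot show whether same-numbered libraries were paired by animal or sort. With the replicate block, 2 genes of the set were higher in stalk and 15 higher in tip, and among p53 targets 3 were higher in stalk. The adjusted p with the block was 0.0598 for Cdkn1a, 0.0643 for Ccnd3-ps, 0.0582 for Cdk10 and 0.113 for Cdk9, and no other called gene of the set lost its call. The p53 targets higher in stalk also numbered 3 with no filter, with a minimum mean of 5 RPKM and with the highest row of each symbol. Those higher in tip numbered 2 without tip replicate 2 and stalk replicate 1. With 1 library left out, p53 targets higher in tip ranged from 2 to 3 and those higher in stalk from 3 to 5. The other cyclin and CDK partner genes higher in stalk ranged from 1 to 4, and were 1 without tip replicate 2 and stalk replicate 1. Pocket protein and DREAM genes higher in stalk ranged from 0 to 1, and were 1 with median ratio scaling. Regulators of CDK activity higher in stalk were 0 with the highest row of each symbol. The cause of these shifts was not tested.

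Genes near 0 that were not called changed sign. With median ratio scaling Cdk8 was at -0.01 and Cdk16 at -0.05. With the highest row of each symbol Ccnl1 was at 0.08 and Cdk16 at -0.02. Without tip replicate 2 and stalk replicate 1, Cdkn1b was at -0.08. With 1 library left out, Cdkn2b ranged from -0.62 to 0.20, Cdk13 ranged from -0.09 to 0.05, Cdk16 ranged from -0.03 to 0.04, Cdk8 ranged from -0.03 to 0.16, Cdkn2d ranged from -0.11 to 0.27 and Cdkn1b ranged from -0.04 to 0.20. Since depth is unknown, no limit of detection can be given for genes listed at 0.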

Other observations

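Tip replicate 2 and stalk replicate 1, the libraries that stood apart, shared a pattern for some of the inhibitors. Cdkn1a and Cdkn2b were both highest in tip replicate 2 within tip (24.8 and 4.71 RPKM) and in stalk replicate 1 within stalk (49.0 and 5.34 RPKM). Of the 39 tested genes of the set, 11 (28.2%) had this pattern, as had 1691 (13.5%) of all 12532 tested genes. The others were Ccnd2, Ccnd3, Ccng2, Cdk7, Cdk8, Cdk12, Cdk13, Ccnl1 and Ccnl2. Within its groups, Cdkn2d was lowest in tip replicate 2 (5.80 RPKM) and stalk replicate 1 (5.58 RPKM). Neither Cdkn2d nor the tested inhibitors Cdkn1b and Cdkn2c had the pattern. Among the p53 targets outside the set, 8 of 22 (36.4%) had it, namely Bbc3, Pmaip1, Sesn2, Plk2, Plk3, Tnfrsf10b, Gadd45a and Ppm1d. The share was 5 of 23 (21.7%) among other cyclin and CDK partner genes, 2 of 10 (20.0%) among pocket protein and DREAM genes and 2 of 14 (14.3%) among regulators of CDK activity. The pattern was looked for after these values were seen, and what sets the 2 libraries apart was not tested.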
